A study of Danio rerio with 6 samples.

Results

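Nuclear-encoded oxidative phosphorylation genes were taken from the deposited count table by name. Entries whose name began with nduf and a subunit letter and number, with sdha to sdhd, with uqcr, with cox4 to cox8 or with atp5 were members, including entries with a number appended to the symbol (such as sdhc_1). The rule found 119 of 53709 entries, which carry 98 symbols. By name, 50 entries belong to complex I, 12 to complex II, 10 to complex III, 24 to complex IV and 23 to complex V. The sdh pattern also takes 5 entries of sdhaf genes, which encode assembly factors of complex II and not subunits, and the atp5 pattern takes 3 entries of atp5if genes, which encode the inhibitor of the ATP synthase. The ndufa4 genes are counted under complex I by name, although the human protein is also described as a subunit of complex IV.

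Oxidative phosphorylation is the main route by which mitochondria make ATP. Complexes I and II take electrons from NADH and succinate, complex III passes them to cytochrome c, and complex IV hands them to oxygen. Complexes I, III and IV pump protons across the inner membrane, and complex V, the ATP synthase, uses the return flow of protons to make ATP. Most subunits are encoded in the nucleus and a few in the mitochondrial genome, and some subunits of complex IV exist as alternative isoforms. In mammals COX4I2 is an isoform of subunit 4 that is abundant in lung and increases in low oxygen.

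Poly(A) RNA was sequenced from male zebrafish. The tissue was the caudal fin blastema, the growth zone of a cut tail fin, taken 4 days after amputation. Fish of the ZnO group were kept in 150 mL of water with 2 mg/L of zinc oxide nanoparticles made with propolis extract, called Pro-ZnO in the labels, and fish of the control group in 150 mL of distilled water. Each group has 3 libraries, with 26624174 to 29340611 counts in ZnO libraries and 28536840 to 31712994 in control libraries. The labels give 5 fish per group in triplicate but neither age, strain nor the number of fish behind a library, so the p-values cover only the spread among the libraries, which may be technical. No group had the extract or zinc ions without particles, and the effects of the 3 cannot be told apart. Markers of fin tissue were present, among them and1, which encodes the fin fold protein actinodin, at 5346 ± 456 CPM in ZnO and 4321 ± 911 CPM in control libraries, and the blastema factor msx1b at 86.1 ± 14.1 and 76.2 ± 8.07 CPM (CPM are TMM-scaled counts relative to library size; mean ± SD, n = 3 each).

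Across the 5 complexes the members lay close to the control level in the ZnO libraries. Of 119 members 115 passed the filter on low counts, and their median log2 fold change of ZnO over control was -0.01, against 0.01 over all 25962 tested entries. No member was called higher or lower by edgeR's quasi-likelihood test at an adjusted p under 0.05, where 0.0963% of all tested entries were called higher and 0.331% lower (0.428% in all). At an unadjusted edgeR p under 0.05 there were 2 higher members, cox4i1l and cox4i2, and 1 lower member, sdha, together 2.61% of the 115, against 15.9% of all tested entries (7.72% higher and 8.20% lower). DESeq2 called 1 member higher, cox4i1l, and 1 lower, sdha, where it called 1.70% of entries higher and 3.10% lower. limma-voom called 0 members, where it called only 8 of all 25962 entries higher and 47 lower. The libraries of the 2 groups did not overlap at 11 members (9.57%), against 22.5% of all tested entries.

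**Figure D1:**
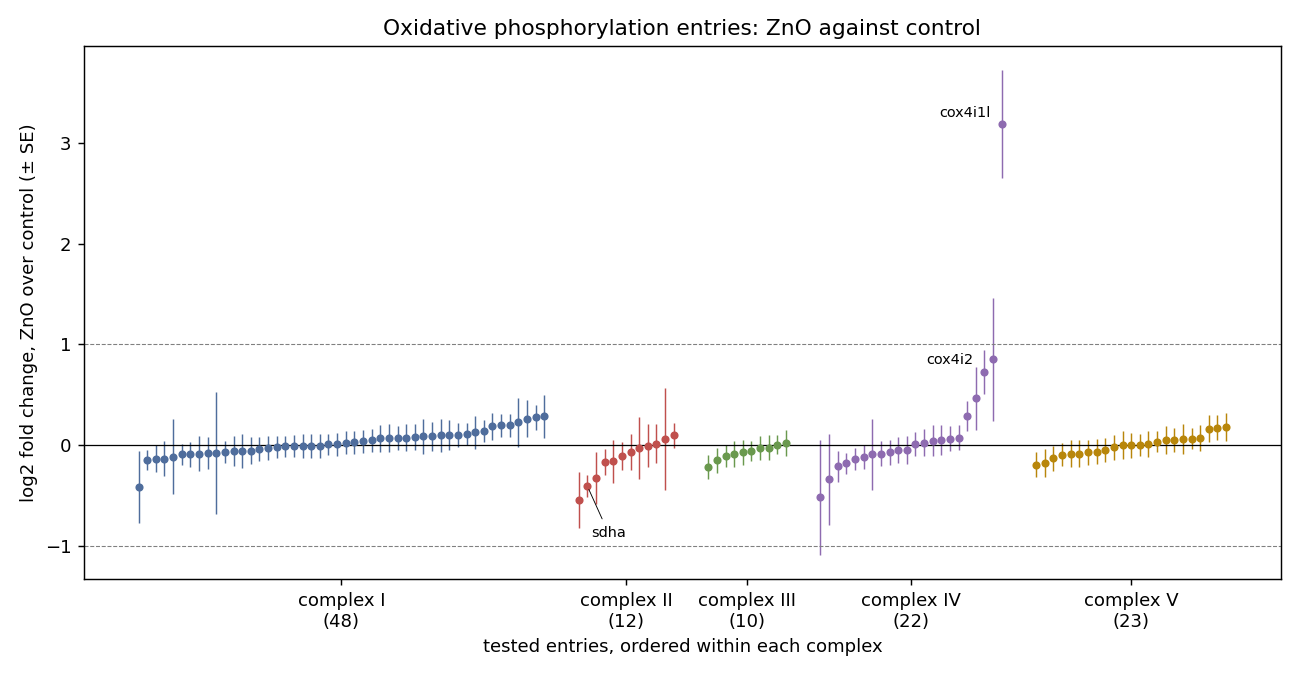
Log2 fold change of ZnO over control for each of the 115 tested members (vertical axis, points, with SE as bars), ordered within complexes I to V (horizontal axis, number of entries in brackets; dashed lines at a 2-fold change). Nearly all points lie near 0; cox4i1l stands at 3.19 and sdha at -0.41.

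The 99 members with a mean of at least 5 CPM, a limit chosen after the data were seen, reached 704 CPM. At 97 of these 99 the estimated fold was within 1.25 in either direction, and at 98 within 1.5. The 95% interval of the log2 fold change used the SE and the total degrees of freedom (residual plus prior) of the edgeR fit. It lay within a 1.5-fold change in either direction at 93 of the 99 and within a 1.25-fold change at 28. Shifts under 1.25-fold were therefore not resolved for most members. Of the 20 members with lower levels 16 were tested, and the interval lay within a 1.5-fold change at 2 of these 16. The 4 untested entries were ndufa4b_1, ndufs8b, cox6a2_1 and cox7a1, with mean levels of at most 0.216 CPM.

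In the levels of the members, the ZnO libraries differed more from each other than the control libraries did. Summed over all 119 members, the level was 5413, 6539 and 5991 CPM in ZnO 1, 2 and 3, against 6152, 6065 and 6264 CPM in control 1, 2 and 3. The ZnO values lie on both sides of the controls, and as a share of all counts the members took 0.598% ± 0.05 in ZnO and 0.614% ± 0.0106 in control libraries (SD, n = 3 each). ZnO 2 was the highest of the 6 libraries at 58 of the 99 members with at least 5 CPM, and ZnO 1 the lowest at 61. The median member stood at -0.16, 0.13 and -0.01 in ZnO 1, 2 and 3 on a log2 scale relative to the mean of the controls, and the controls lay between -0.01 and 0.02.

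The median coefficient of variation of these 99 members was 11.8% in ZnO and 4.90% in control libraries. Over the 15349 entries with at least 5 CPM it was 12.4% in ZnO and 10.51% in controls. The members were thus about as variable as other entries in ZnO and less variable in controls. These sets were not matched for level, and the part of counting noise in this comparison was not tested. ZnO 2 also had the highest summed level of cytosolic ribosomal protein entries (rpl and rps names), at 72870 CPM, against 55710 and 55480 CPM in ZnO 1 and 3 and 55460 to 59200 CPM in controls. It also had the lowest total count of the 6 libraries. The part of either in the members' spread was not tested. Without ZnO 2 the median log2 fold change of the members was -0.08, and without ZnO 1 it was 0.04, so the sign of the median depended on single libraries.

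**Figure D2:**
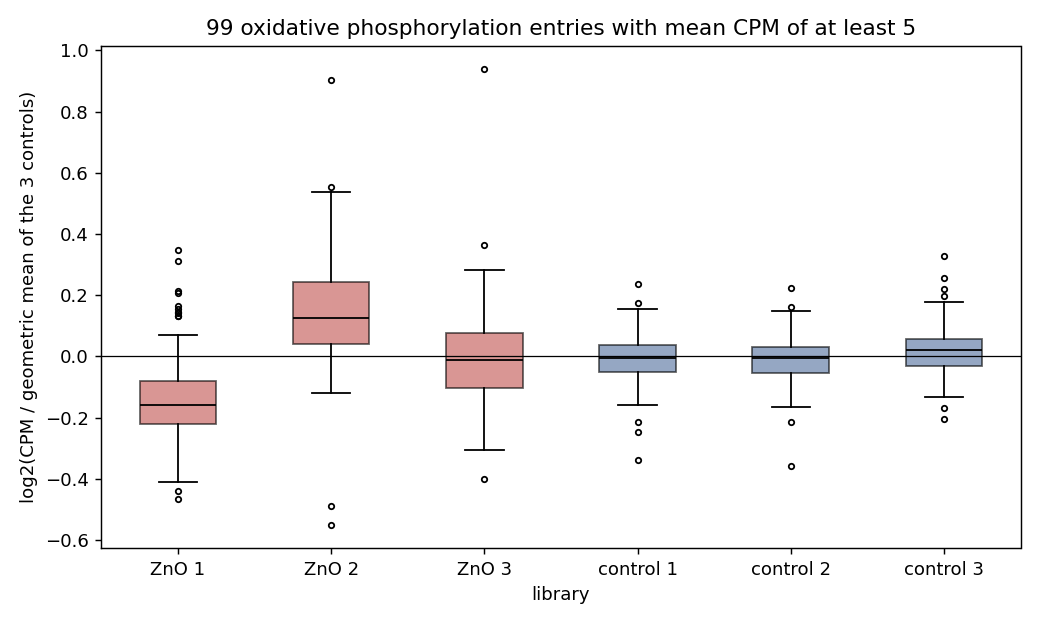
Level of each of the 99 members with at least 5 CPM in each library, as log2 of CPM over the geometric mean of the 3 controls (vertical axis); boxes show quartiles and medians, whiskers reach 1.5 times the box length, and points lie beyond. ZnO 1 and ZnO 2 lie on opposite sides of 0, with medians of -0.16 and 0.13, while the control medians lie between -0.01 and 0.02.

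Complex I oxidises NADH, and of its 48 tested entries 26 lay above 0 and 22 below, around a median of 0.01 on the log2 scale (-0.04 without ZnO 2 and 0.07 without ZnO 1). The range ran from -0.42 to 0.28. Its lower end was ndufa4b, at only 0.899 CPM in ZnO and 1.198 CPM in control libraries, and the next lowest entry was ndufv1 at -0.15. The 3 entries with the smallest p were ndufb9_1, ndufa8_1 and ndufa6, all of accessory subunits. ndufb9_1 was at 25.5, 30.35 and 26.7 CPM in ZnO 1, 2 and 3 and at 23.3, 24.1 and 20.8 CPM in control 1, 2 and 3. The groups did not overlap, and the log2 fold change was 0.27 ± 0.12 (SE; edgeR adjusted p = 0.32). The other entry of that symbol, ndufb9, was at 25.55 ± 2.77 CPM in ZnO and 23.8 ± 0.966 CPM in control libraries, with overlapping groups.

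ndufa8_1 averaged 20.9 ± 1.11 CPM in ZnO and 18.3 ± 1.18 CPM in control libraries, and ndufa6 averaged 43.0 ± 2.88 and 37.6 ± 3.77 CPM (edgeR adjusted p = 0.460 and 0.469). The entry ndufa8, of the same symbol as ndufa8_1, was at 16.9 ± 0.917 CPM in ZnO and 17.0 ± 1.14 CPM in control libraries. Its groups overlapped, and with the ndufa8 entries summed the log2 fold change was 0.10. ndufv1 encodes the flavoprotein that binds NADH. It was at 99.1, 110 and 105 CPM in ZnO 1, 2 and 3 and at 113, 118 and 118 CPM in control 1, 2 and 3. All ZnO values were lower than all control values, with a log2 fold change of -0.15 ± 0.10 that did not pass (edgeR adjusted p = 0.526). Of the ndufa4 genes, ndufa4a was at 100.5 ± 10.5 CPM in ZnO and 97.95 ± 2.79 CPM in control libraries. ndufa4b and ndufa4l2a stood at 0.899 ± 0.358 and 0.369 ± 0.187 CPM in ZnO and at 1.198 ± 0.115 and 0.390 ± 0.241 CPM in control libraries. All 3 had overlapping groups.

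Complex II, succinate dehydrogenase, links the citrate cycle to the electron transport chain and has no mitochondrially encoded subunit. Of its 12 entries 9 lay below 0 (median log2 fold change -0.09). The median was -0.23 without control 3, -0.19 without ZnO 2, -0.05 without control 1 and -0.04 without ZnO 3, below 0 in each case. The summed level was 274, 302 and 285 CPM in ZnO 1, 2 and 3, against 327, 310 and 329 CPM in control 1, 2 and 3, so that the groups did not overlap. The gap between the means came from sdha, which encodes the catalytic flavoprotein. Without sdha, an exclusion made after the values were seen, the sum was 167.5, 198 and 165 CPM in ZnO and 182, 168 and 177 CPM in control libraries, with overlapping groups. The means without sdha were 176.6 CPM in ZnO and 175.5 CPM in control libraries.

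sdha was at 106, 104 and 120 CPM in ZnO 1, 2 and 3, and at 144.5, 142.5 and 152 CPM in control 1, 2 and 3. The 3 ZnO libraries were all lower, at 0.752 times the control level by the fit. The log2 fold change of -0.41 ± 0.11 (SE) did not pass edgeR (adjusted p = 0.136) but passed DESeq2 (adjusted p = 0.0245). It ran from -0.48 to -0.39 over the alternatives, with adjusted p from 0.0245 to 0.299. sdhb, the iron-sulfur subunit that works next to sdha, was at 104, 128.5 and 102 CPM in ZnO and at 109, 96.8 and 107 CPM in control libraries, with overlapping groups. The log2 ratio of sdha to sdhb averaged -0.01 ± 0.27 in ZnO and 0.49 ± 0.08 in control libraries (SD, n = 3 each). This difference of -0.50 had p = 0.1 (exact permutation test, 2-sided). No smaller p is possible with 3 against 3 libraries, so this test could not have passed the threshold. The pair was chosen after the values were seen, when the groups of sdha alone were known not to overlap. Its p is thus no independent support, and it was 0.22 after adjustment over 11 such pairs.

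The membrane anchors of complex II are encoded by sdhc and the sdhd genes. The 3 entries of sdhc had log2 fold changes of -0.11, -0.55 and -0.01, the second of them, sdhc_1, at only 1.13 ± 0.117 CPM in ZnO and 1.65 ± 0.334 CPM in control libraries. sdhdb was at 14.7, 18.5 and 18.7 CPM in ZnO 1, 2 and 3, all below the controls at 19.6, 19.6 and 19.2 CPM, and did not pass (log2 fold change -0.17 ± 0.13, edgeR adjusted p = 0.575). Its paralogue sdhda stood at 0.549 ± 0.144 CPM in ZnO and 0.526 ± 0.268 CPM in control libraries. The 5 entries of assembly factors sdhaf1 to sdhaf4 had log2 fold changes from -0.33 (sdhaf3) to 0.01 (sdhaf4), and none passed.

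**Figure D3:**
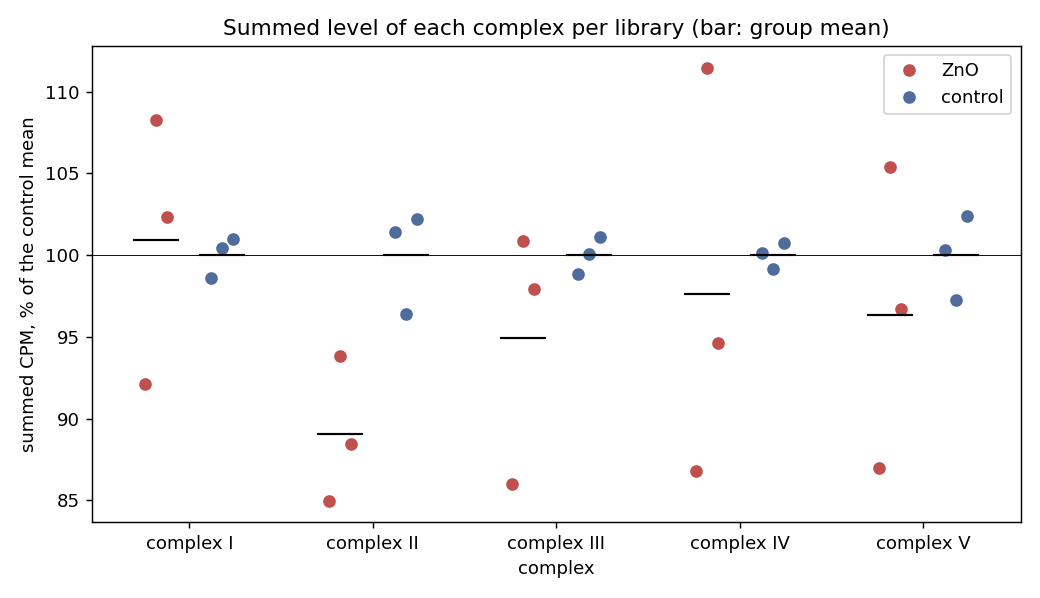
Summed CPM of each complex in each library as a percentage of the control mean (vertical axis; points are libraries, replicates 1 to 3 from left within a group, bars are group means). Complex II is the only one of the 5 whose ZnO libraries all lie below all control libraries, at 274 to 302 CPM against 310 to 329 CPM. Without sdha its groups overlap, with means of 176.6 CPM in ZnO and 175.5 CPM in control libraries (not drawn).

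Complex III, which reduces cytochrome c, had 8 of 10 entries below 0 and a median log2 fold change of -0.07. The median was -0.12 without ZnO 2, -0.11 without ZnO 3 and -0.0018 without ZnO 1. No entry had groups that did not overlap, and log2 fold changes ran from -0.22 to 0.02. uqcrh, the hinge protein of the complex, was at 45.0, 57.5 and 51.6 CPM in ZnO 1, 2 and 3 and at 61.5, 56.1 and 62.1 CPM in control 1, 2 and 3 (log2 fold change -0.22 ± 0.12, edgeR adjusted p = 0.424). The Rieske iron-sulfur protein gene uqcrfs1 was at 82.2 ± 5.99 CPM in ZnO and 85.7 ± 1.35 CPM in control libraries. The small subunit genes uqcrq and uqcr10 had log2 fold changes of -0.15 ± 0.13 and -0.11 ± 0.11, and neither passed (edgeR adjusted p = 0.603 and 0.670). The second entry uqcrq_1 had a log2 fold change of 0.02 ± 0.13, and with the uqcrq entries summed the value was -0.06.

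Complex IV, cytochrome c oxidase, had the widest range of the 5 complexes, from -0.52 to 3.19, around a median of -0.02 over 22 tested entries (-0.13 without ZnO 2 and 0.04 without ZnO 1). The top of the range was cox4i1l, whose name marks it as similar to cox4i1, the general isoform of the nuclear-encoded regulatory subunit 4. cox4i1l had 29, 45 and 21 counts in ZnO 1, 2 and 3, against 5, 2 and 4 counts in control 1, 2 and 3. Scaled to depth, these are 1.01, 1.72 and 0.702 CPM in ZnO and 0.164, 0.0704 and 0.126 CPM in control libraries. Every ZnO library was above every control library by a wide margin, yet the level was low throughout, and 3 counts correspond to between 0.0949 and 0.115 CPM.

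The summed counts of cox4i1l, 95 in ZnO and 11 in controls, give a ratio of 9.21 after scaling (95% exact binomial interval 4.92 to 19.1, which covers counting error only). Its fitted log2 fold change was 3.19 ± 0.54 (SE; edgeR adjusted p = 0.0598). DESeq2 called it (adjusted p = 3.78e-04), and so did edgeR without a filter on low counts (adjusted p = 0.0175). Every control count of cox4i1l lay below the filter's minimum count of 10, and every ZnO count lay above it. cox4i1l thus passed the filter only through the group in which it was higher. The adjusted p-values obtained after the filter, by edgeR and DESeq2, make no allowance for this. The stricter filter on low counts removed cox4i1l, so it was not tested there. Over the 14 other alternatives the adjusted p ran from 3.78e-04 to 0.159, and the log2 fold change stayed between 2.76 and 3.46.

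cox4i2 carries the name of the mammalian isoform COX4I2, and whether it responds to low oxygen in zebrafish was not tested. Its level was 12.5, 18.35 and 18.8 CPM in ZnO 1, 2 and 3, against 10.0, 7.64 and 12.3 CPM in control 1, 2 and 3. The groups did not overlap, but ZnO 1 and control 3 were almost equal. The log2 fold change of 0.73 ± 0.22 did not pass edgeR (adjusted p = 0.177) or DESeq2 (adjusted p = 0.0629). cox4i1 was at 130, 167 and 145 CPM in ZnO and at 145, 149 and 146 CPM in control libraries, with overlapping groups (log2 fold change 0.01 ± 0.12, 95% interval -0.27 to 0.29; with DESeq2's size factors or its test, the stricter filter, or without control 1, control 3 or ZnO 2, the sign was negative).

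Of all counts on these 3 genes of subunit 4, cox4i2 took 9.98% ± 1.36 in ZnO and 6.37% ± 1.44 in control libraries, and cox4i1l took 0.683% ± 0.249 and 0.0769% ± 0.0307 (SD, n = 3 each). The share of cox4i1 was 89.3% ± 1.21 in ZnO and 93.55% ± 1.46 in control libraries. These are shares of counts and not of molecules, since they are not corrected for transcript length.

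**Figure D4:**
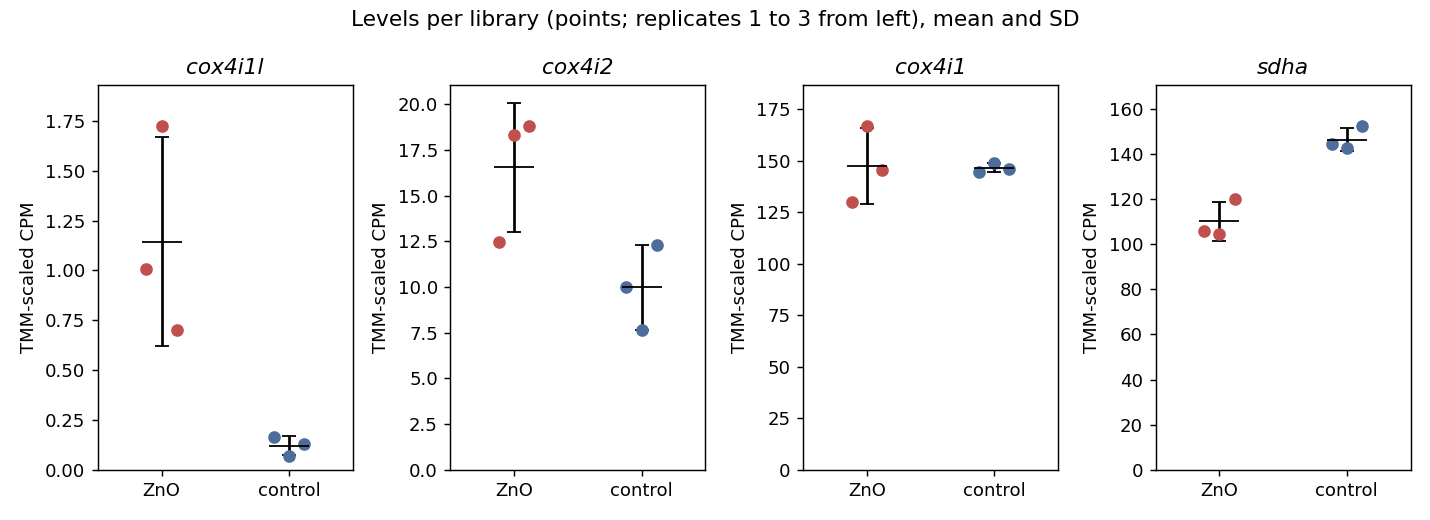
TMM-scaled CPM of cox4i1l, cox4i2, cox4i1 and sdha in the 3 ZnO and 3 control libraries (vertical axes start at 0; points are libraries, bars the mean and SD). The ZnO libraries lie above the controls for cox4i1l and cox4i2 and below them for sdha, and overlap them for cox4i1, at 130 to 167 CPM against 145 to 149 CPM.

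No other complex IV gene with known isoforms had an unadjusted edgeR p under 0.05. For the tissue isoforms of subunit 6a, cox6a1 was at 148 ± 12.3 CPM in ZnO and 162.5 ± 2.14 CPM in control libraries, while cox6a2, the heart and muscle form in mammals, was at 0.304 ± 0.203 and 0.432 ± 0.147 CPM. The muscle-type gene cox7a1 was near the floor, and its second entry cox7a1_1 stood at 1.19 ± 0.437 CPM in ZnO and 1.28 ± 0.213 CPM in control libraries. cox8b, a muscle form of subunit 8 in mammals, was at 0.520 ± 0.281 and 0.654 ± 0.0742 CPM, and cox8a at 92.5 ± 13.6 and 95.7 ± 2.95 CPM. The groups overlapped at all tested entries of these genes. The untested second entry cox6a2_1 had 6, 0 and 4 counts in ZnO 1, 2 and 3 and 10, 7 and 12 counts in control 1, 2 and 3, which do not overlap. The groups also overlapped at all tested entries of the cox5a, cox5b, cox6b and cox7b genes. Among these cox5b2 had the farthest log2 fold change from 0, 0.85 ± 0.61, at 0.634 ± 0.271 CPM in ZnO and 0.345 ± 0.248 CPM in control libraries (edgeR adjusted p = 0.547).

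cox7a2b was at 18.65, 25.8 and 20.75 CPM in ZnO 1, 2 and 3 and at 16.1, 18.3 and 19.1 CPM in controls, and its paralogue cox7a2a was at 26.1, 35.9 and 25.5 CPM in ZnO and at 36.3, 31.0 and 33.9 CPM in controls. Their log2 fold changes were 0.29 ± 0.15 and -0.21 ± 0.15, both had overlapping groups, and neither passed (edgeR adjusted p = 0.404 and 0.554). cox7a2l, known in mammals for joining complexes III and IV into supercomplexes, was at 19.2 ± 1.83 CPM in ZnO and 18.4 ± 1.23 CPM in control libraries. cox6c, a small subunit, was at 45.45, 51.8 and 49.7 CPM in ZnO and at 58.1, 53.1 and 55.8 CPM in control libraries, which did not overlap (log2 fold change -0.18 ± 0.10, edgeR adjusted p = 0.437).

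Complex V had log2 fold changes from -0.20 to 0.18, with 10 of its 23 entries above 0 and 13 below. The median was -0.0013 with all libraries and ran from -0.13 without ZnO 2 to 0.07 without ZnO 1. The alpha subunit gene atp5fa1 was at 647, 700 and 695 CPM in ZnO 1, 2 and 3 and at 708, 704 and 770 CPM in control 1, 2 and 3. All ZnO values were lower, ZnO 2 only slightly, and the log2 fold change of -0.10 ± 0.11 did not pass (edgeR adjusted p = 0.735). The beta subunit gene atp5f1b was at 612 ± 64.3 CPM in ZnO and 671.5 ± 29.5 CPM in control libraries.

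The 3 complex V entries with the smallest p were atp5if1a, atp5mea and atp5mc3a. atp5mc3a, a gene for the membrane ring, was at 114 ± 16.7 CPM in ZnO and 129 ± 12.0 CPM in control libraries (edgeR adjusted p = 0.571). atp5mea, for a small membrane subunit, was at 27.45 ± 3.63 and 24.4 ± 0.306 CPM (edgeR adjusted p = 0.559). The inhibitor of the ATP synthase, which blocks ATP hydrolysis when the proton gradient fails, is encoded by atp5if1a and atp5if1b. atp5if1a was at 49.4, 58.2 and 47.9 CPM in ZnO and at 63.5, 53.3 and 61.3 CPM in control libraries (log2 fold change -0.20 ± 0.12, edgeR adjusted p = 0.487). The entries atp5if1b and atp5if1b_1 had log2 fold changes of 0.06 ± 0.11 and 0.18 ± 0.14.

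For 11 pairs of related genes, chosen after the values were seen, the log2 ratio within each library was compared between the groups, with entries of a symbol summed. The groups did not overlap for 5 pairs: cox4i2 over cox4i1 (difference 0.73), cox4i1l over cox4i1 (3.23), cox7a2b over cox7a2a (0.50), atp5if1b over atp5if1a (0.29) and sdha over sdhb (-0.50). Each had an exact permutation p = 0.1, the smallest that 3 against 3 libraries can give, and 0.22 after adjustment over the 11 pairs. This test could therefore not have passed a threshold of 0.05. cox4i2, cox4i1l and sdha each had groups that did not overlap on their own, which was known when the pairs were chosen. The number of separated pairs is thus no independent support, and no background share of pairs was computed. In the other pairs the groups overlapped, with differences from -0.21 for atp5meb over atp5mea to 0.54 for cox5bb over cox5ba.

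The ratio of cox7a2b to cox7a2a was -0.49, -0.48 and -0.30 in ZnO 1, 2 and 3 and -1.17, -0.76 and -0.83 in controls, on the log2 scale. The ratio of atp5if1b to atp5if1a was 0.24, 0.20 and 0.27 in ZnO, and -0.21, 0.19 and -0.13 in controls, with ZnO 2 and control 2 almost equal. Ratios within a library do not depend on the scaling between libraries.

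In the table, 18 member symbols have 2 or 3 entries, 15 of them with at least 2 entries tested. Entries of 1 symbol had the same sign of the log2 fold change at 8 of these 15 symbols and both signs at 7. Their log2 fold changes lay at most 0.54 apart, at sdhc. How the counting shared reads between such entries is not given in the sources used here, so single entries of these symbols are less certain than their sum. With the entries of each symbol summed before the fit, edgeR again called 0 members. Of all 21926 symbols tested in that fit, it called 17 higher and 63 lower.

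Other mitochondrial genes, in lists chosen with earlier results of these data known, also had 0 entries past the edgeR threshold. The share called over all tested entries was 0.428%. Of the 13 subunit genes of the mitochondrial genome 10 lay above 0 (median log2 fold change 0.13), with 0 at an unadjusted edgeR p under 0.05. Their summed level was 18420, 19630 and 18540 CPM in ZnO 1, 2 and 3 and 18120, 18970 and 17070 CPM in control 1, 2 and 3, which overlap. ATP8, a subunit of the ATP synthase, had the smallest p, at 353 ± 26.5 CPM in ZnO and 303 ± 35.3 CPM in control libraries (edgeR adjusted p = 0.457). Assembly factors, proteins that build the complexes, had 30 above and 29 below 0 of 59 tested entries with a median of 0.02, and 0 at an unadjusted p under 0.05. Among them ecsit, an assembly factor of complex I, had the smallest p, at 6.81 ± 0.468 CPM in ZnO and 8.43 ± 0.350 CPM in control libraries (edgeR adjusted p = 0.338).

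Carriers, exchangers and subunits that the name pattern misses had a median of -0.04 over 15 tested entries. cycsb, a cytochrome c gene, was at 88.0 ± 10.1 CPM in ZnO and 119.5 ± 7.845 CPM in control libraries (SD, n = 3 each). Its log2 fold change of -0.44 ± 0.12 had an edgeR adjusted p = 0.150 and a DESeq2 adjusted p = 0.0415, the 1 entry of these lists that DESeq2 called. cyc1, the cytochrome c1 subunit of complex III, was at 99.8 ± 10.0 CPM in ZnO and 109 ± 2.18 CPM in control libraries.

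Genes of pyruvate dehydrogenase and the citrate cycle had 21 of 26 tested entries below 0, with a median of -0.05 and 1, suclg1, lower at an unadjusted p under 0.05. suclg1, a subunit of succinate-CoA ligase, was at 81.2 ± 4.065 CPM in ZnO and 99.05 ± 7.66 CPM in control libraries (edgeR adjusted p = 0.255). Regulators of mitochondrial biogenesis had 14 of 23 below 0, a median of -0.12 and 2 lower at an unadjusted p under 0.05. The coactivator gene ppargc1b was at 21.4 ± 3.904 CPM in ZnO and 30.1 ± 6.51 CPM in control libraries (edgeR adjusted p = 0.282). Mitochondrial ribosomal protein genes had 70 of 97 below 0, with a median of -0.09, and 3 lower at an unadjusted p under 0.05. Across all tested entries, 48.0% were below 0 and 8.20% were lower at an unadjusted p under 0.05, and among the members 63 of 115 were below 0.

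**Figure D5:**
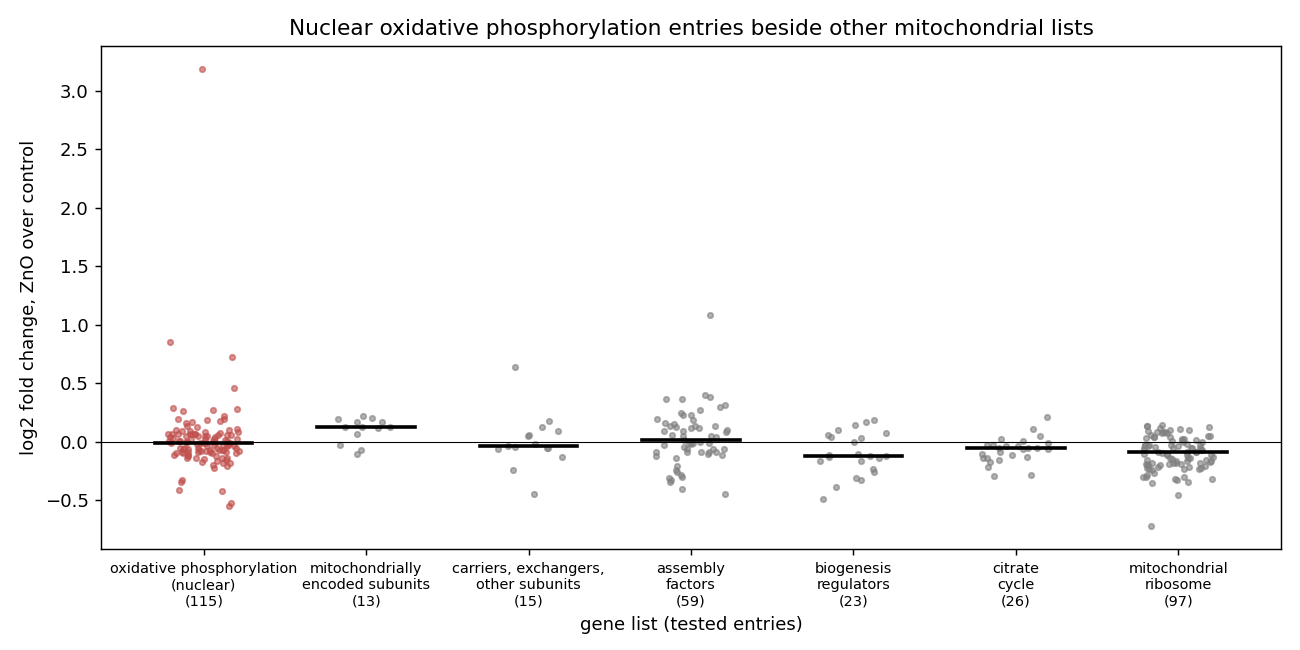
Log2 fold change of ZnO over control (vertical axis) of each tested entry of 7 mitochondrial gene lists (horizontal axis, number of entries in brackets; thick bars are medians). The medians lie between -0.12, for biogenesis regulators, and 0.13, for mitochondrially encoded subunits.

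Summed levels of neutrophil and erythrocyte markers did not overlap between the groups, the erythrocyte ranges only barely (154.4 CPM in ZnO 1 against 153.5 CPM in control 3). Those of the other marker lists given here overlapped. The summed level of 21 neutrophil marker entries was 450 to 606 CPM in ZnO and 1014 to 1240 CPM in control libraries, and 5 of the 21 were called lower by edgeR. All 21 lay below 0 (median log2 fold change -1.04), with 17 lower at an unadjusted p under 0.05 and 13 called lower by DESeq2. The summed level of 16 erythrocyte marker entries was 154 to 401 CPM in ZnO and 29.3 to 154 CPM in controls. Of these 16, 15 were tested, with 0 called by edgeR, 7 higher at an unadjusted p under 0.05 and 5 higher by DESeq2. All 15 lay above 0 (median log2 fold change 1.47). Marker entries of ionocytes, the mitochondria-rich cells of fish skin, summed to 1093 to 1367 CPM in ZnO and 997 to 1260 CPM in controls, with 18 of 31 tested and 12 of these 18 below 0 (median log2 fold change -0.30). Of the ionocyte entries 0 were called by edgeR, 2 were higher and 6 lower at an unadjusted p under 0.05, and DESeq2 called 1 higher and 3 lower. Skeletal muscle marker entries summed to 20.4 to 28.1 CPM in ZnO and 26.9 to 31.9 CPM in controls, with 7 of 33 tested. Among these, 6 entries were at 0 in all libraries: the fast-muscle genes myl1, pvalb1, pvalb4, tnni2a.4 and both entries of pvalb2. Fin epidermis markers summed to 48030 to 60910 CPM in ZnO and 39460 to 50950 CPM in controls, with 0 of 19 called by edgeR or DESeq2 and 2 higher at an unadjusted p under 0.05. Of these 19 entries 10 lay below 0 (median log2 fold change -0.06). Blastema and fin mesenchyme markers, and1 and msx1b among them, summed to 7974 to 9277 CPM in ZnO and 6033 to 8431 CPM in controls. Of their 17 tested entries 12 lay above 0 and 5 below. In that list 0 were called by edgeR or DESeq2, and 2 were higher and 2 lower at an unadjusted p under 0.05. Osteoblast markers summed to 7135 to 8687 CPM in ZnO and 5217 to 7975 CPM in controls. All 9 osteoblast entries were above 0, with 0 called by edgeR, 5 higher at an unadjusted p under 0.05 and 2 called higher by DESeq2. Over all tested entries, 7.72% were higher and 8.20% lower at an unadjusted edgeR p under 0.05. At the adjusted threshold edgeR called 0.0963% higher and 0.331% lower, and DESeq2 called 1.70% and 3.10%. Whether each marker is expressed only by the cell type of its list in this tissue was not tested. In bulk tissue, fewer cells of a type and less RNA per cell cannot be told apart, and the part of these shifts in the members' levels was not tested.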

How the data were processed

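The authors deposited raw counts per gene entry for 6 libraries, 1 column each, made from paired reads of 150 bases of RNA with an integrity number above 7.0, per the labels' protocols. The tools named in the submitters' processing notes are DESeq2, HTSeq, BWA and cutadapt, and the build is GRCz11. The sources used here state no versions, annotation, strand setting or handling of spliced and multiply mapped reads. No reference of that build was used, so coordinates and sequences are not given here. All 98 member symbols were found in RefSeq's gene list for GRCz12tu, which served for names only.

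Entries were filtered with filterByExpr (minimum count 10), which left 25962 with 99.9% of counts. TMM factors ran from 0.981 to 1.02. The 2 groups were compared by edgeR's quasi-likelihood test (robust, common biological coefficient of variation 0.221), followed by Benjamini-Hochberg adjustment over all tested entries and a threshold of 0.05. SE is the log2 fold change divided by the root of its F statistic. The 95% intervals use the t quantile at each entry's total degrees of freedom, residual plus prior (median 8.41). The software was edgeR 4.0.16, DESeq2 1.42.0 and limma 3.58.1 in R 4.3.3. Figures were drawn with matplotlib 3.10.9 in Python 3.11.15. The scripts were tested on simulated data. Within each group no library was a duplicate of another, and pairs across the groups were not compared.

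Members and lists were chosen with earlier results of these data known. Named are, per complex, the 3 tested members with the smallest p and the 1 with the highest CPM, members with known isoforms or inhibitory and assembly roles, and the entry with the smallest p of 5 pathway lists. Others (ndufb9, ndufa8, uqcrq_1, cox6c, cox5ba, cox5bb, atp5meb, atp5f1b, cyc1, mitochondrial ribosomal protein genes and untested members) were added after their values were seen. Alternatives were other scalings, DESeq2, limma-voom, no or a stricter filter, a block by replicate number, leaving out single libraries, summed entries and an adjusted p under 0.01.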

Additional observations from a re-analysis of the deposited data

How the results depend on the processing

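The count of members called was 0 in each direction by edgeR. It was also 0 under all alternatives except DESeq2 (1 higher and 1 lower) and edgeR without a filter (1 higher). An adjusted p under 0.01 could only give 0, since it re-used the main edgeR fit. The members' median log2 fold change stayed within the spread between libraries in each alternative, from -0.08 to 0.04. Over all entries, higher and lower calls numbered 425 and 774 with DESeq2, 8 and 47 with limma-voom, 122 and 283 without a filter, 13 and 54 with the stricter filter (minimum count 50), 3 and 29 with the replicate block, and 0 and 0 at an adjusted p under 0.01; leaving out 1 library gave 0 to 87 and 12 to 282. Calls numbered 21 and 82 with DESeq2's size factors, 22 and 81 with upper-quartile scaling, and 17 and 63 with entries summed. Replicate numbers showed no clear pairing of the samples. Correlations of deviations were 0.01, -0.05 and 0.08 for libraries of the same number and -0.18 to 0.16 for the others. With 3 libraries per group this check cannot exclude a pairing. The block changed no call among members.

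Of 771 values of 52 named genes, 728 kept direction and side of the threshold, 4 newly passed and 39 changed sign, at 17 genes whose log2 fold change lay within 0.1 of 0; the cause was not tested. cox4i1 had log2 fold changes of -0.0001 with DESeq2's size factors and its test and -0.0005 with the stricter filter, cox7a2l_1 of 0.0262 with entries summed, sdhaf1 of 0.0248 with limma-voom and 0.0047 with the block, and sdhc_2 of 0.0021 with upper-quartile scaling. With 1 library left out, values ran from -0.0072 to 0.1032 for atp5if1b, -0.105 to 0.0799 for cox4i1, -0.1219 to 0.1846 for cox6b1, -0.1285 to 0.157 for cox6b2, -0.2711 to 0.1618 for cox7a1_1, -0.0091 to 0.1173 for cox7a2l, -0.1057 to 0.0066 for cox7a2l_1, -0.0424 to 0.1516 for cox7b, -0.191 to 0.0093 for cox8a, -0.0619 to 0.0895 for ndufa4a, -0.3678 to 0.53 for ndufa4l2a, -0.28 to 0.1942 for sdhaf1, -0.1862 to 0.0602 for sdhaf2_1, -0.0444 to 0.1071 for sdhaf4, -0.0349 to 0.1535 for sdhb, -0.2765 to 0.1114 for sdhc_2 and -0.319 to 0.3624 for sdhda. Levels under about 1 CPM rest on few counts.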
